A study of Mus musculus with 9 samples.

Results

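Pleiotrophin and midkine are the only members of a family of small secreted growth factors that bind heparin, and syndecans and glypicans are the cell surface proteoglycans that carry the heparan sulfate chains to which such factors bind. The 9 genes described here are the ligands Ptn and Mdk, the syndecans Sdc1, Sdc2, Sdc3 and Sdc4, and the glypicans Gpc1, Gpc3 and Gpc4. Their probe sets were chosen by gene symbol: every probe set whose platform annotation gives exactly 1 symbol, equal to one of these names, was taken, which gave 18 of the 22626 probe sets and 9 of the 12393 genes measured. The genes were picked with their levels in these cultures already known, so the log2 intensities of the 3 cultures that follow, their differences and the calls are a description, and no p value is given for any of the 18 probe sets.

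RNA from 9 cultures was hybridized to MOE430A arrays, an Affymetrix design on which each transcript is read by 1 or more probe sets. Tumorspheres (TMS) are non-adherent spheres that were grown in stem cell medium from mammary tumors of MMTV-Neu [N2O2] mice, in which the mouse mammary tumor virus promoter drives a Neu (Erbb2) transgene in the mammary epithelium, and the 3 cultures came from independent tumors. Mammospheres (MMS) were grown in the same medium from mammary glands of virgin female FVB/N mice that were 6 to 8 weeks old, for which no transgene is given. Both kinds of sphere were passaged every 7 days and harvested at passage 3 to 5. In mammospheres induced to differentiate (diffMMS), cells of dissociated FVB/N mammospheres were plated on rat tail collagen and kept for 7 days in medium with serum, so that serum, attachment and time in culture cannot be told apart. Each group has 3 arrays, named here by their codes: 1099A, 1100A and 1101A for TMS, 858A, 859A and 860A for MMS, and 861A, 862A and 863A for diffMMS. In the label of 858A the array code is followed by an R that none of the sources used here explains. The codes of the TMS arrays form a run of their own, so that an effect of that run and the difference between TMS and the other cultures cannot be told apart. Whether animals were pooled, and the age of the tumor-bearing mice, are not given in the sources used here.

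In syndecans the protein crosses the membrane and its short cytoplasmic tail binds PDZ domain proteins, whereas glypicans are held to the outer leaflet by a lipid anchor. The sulfation of the chains determines which growth factors they hold, and shedding of the outer part by proteases turns a co-receptor into a soluble competitor. In the mammary gland Sdc1 is best known from epithelial cells, where it was first cloned, and pleiotrophin and midkine are known from the developing gland and from breast tumors.

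Promoters are shown first for the syndecans and glypicans whose levels separated the cultures most, so that their starts can be read beside the values. RefSeq's windows on GRCm38.p6 run from 250 bases before to 50 bases after a gene's start, and 6 of the 9 genes have one: Ptn, Sdc1, Sdc3, Sdc4, Gpc3 and Gpc4. Mdk, Sdc2 and Gpc1 were not matched. The capitals mark the GC box, GGGCGG or its complement CCGCCC, and the TATA core, TATAA or its complement TTATA. Overlapping matches run together.
Sdc1, chr12:8771146-8771445, plus strand: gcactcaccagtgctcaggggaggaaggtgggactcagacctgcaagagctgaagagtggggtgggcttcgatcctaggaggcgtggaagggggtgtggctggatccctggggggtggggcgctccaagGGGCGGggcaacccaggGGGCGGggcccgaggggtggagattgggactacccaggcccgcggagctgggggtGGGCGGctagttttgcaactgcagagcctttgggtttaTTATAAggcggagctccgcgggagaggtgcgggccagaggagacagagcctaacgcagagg
Sdc4, chr2:164443139-164443438, minus strand: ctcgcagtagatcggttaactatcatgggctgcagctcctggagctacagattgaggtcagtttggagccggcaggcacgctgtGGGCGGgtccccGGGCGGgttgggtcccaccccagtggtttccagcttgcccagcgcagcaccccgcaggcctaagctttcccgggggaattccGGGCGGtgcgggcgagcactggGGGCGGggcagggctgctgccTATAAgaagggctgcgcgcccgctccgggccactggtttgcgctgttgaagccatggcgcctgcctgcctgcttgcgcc
Gpc3, chrX:52613925-52614224, minus strand: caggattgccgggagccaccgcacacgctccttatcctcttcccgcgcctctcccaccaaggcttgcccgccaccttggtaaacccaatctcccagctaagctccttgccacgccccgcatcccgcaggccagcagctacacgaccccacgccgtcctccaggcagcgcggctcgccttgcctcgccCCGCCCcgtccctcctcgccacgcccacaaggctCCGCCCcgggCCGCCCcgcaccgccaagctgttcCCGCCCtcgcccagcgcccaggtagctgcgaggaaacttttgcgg
Gpc4, chrX:52164874-52165173, minus strand: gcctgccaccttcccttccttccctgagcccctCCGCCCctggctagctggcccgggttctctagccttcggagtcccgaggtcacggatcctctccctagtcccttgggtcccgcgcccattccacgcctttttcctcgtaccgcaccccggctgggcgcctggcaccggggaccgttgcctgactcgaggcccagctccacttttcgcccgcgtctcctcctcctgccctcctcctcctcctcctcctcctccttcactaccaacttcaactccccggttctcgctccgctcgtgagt
The window of Sdc1 on chromosome 12 holds 3 GC boxes and a TATA core that reads on both strands, and 66.3% of its bases are G or C. Sdc4, on chromosome 2, has 4 GC boxes and 1 TATA core, with 67.7% G or C. Gpc3 has 4 GC boxes and no TATA core (70.7% G or C), and Gpc4 has 1 GC box and no TATA core (66.7%). Gpc3 and Gpc4 lie next to each other on the X chromosome with 0 genes between them. Ptn, on chromosome 6, is the only one of the 6 without a GC box (52.0% G or C, 6 CpG dinucleotides), and Sdc3, on chromosome 4, has the highest G or C share (77.7%, 44 CpG dinucleotides, 3 GC boxes). Among the 32851 windows of all genes the median was 52.7% G or C with 7 CpG dinucleotides, 35.7% held a GC box and 24.9% a TATA core on either strand. A CCAAT box, found in 37.4% of all windows, occurs once each in those of Ptn, Sdc1 and Gpc3. The AP-1 site TGANTCA (7.81% of all windows) and the E-box CACGTG (7.15%) are in none of the 6, which says only that these letters are not in these windows.

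Of the 2 ligands, pleiotrophin separated TMS from the other cultures on both of its probe sets, and midkine barely separated the 3 cultures. All values below are log2 intensities after a small constant was added and the arrays were quantile normalized, and a difference is called where its adjusted p in limma, over all 22626 probe sets, was under 0.05. Levels of different probe sets are not compared with each other. For probe set 1416211_a_at of Ptn the TMS arrays read 6.84, 7.30 and 5.69, the MMS arrays 7.88, 8.04 and 7.76, and the diffMMS arrays 8.58, 9.02 and 8.70. No 2 groups overlapped, and the order was TMS, MMS, diffMMS from low to high. The difference of TMS from MMS was −1.29 (SE 0.299, 2.44-fold) and that from diffMMS −2.15 (SE 0.299, 4.45-fold), and both were called. The step from MMS to diffMMS was 0.87 (SE 0.299), which was called here and in 6 of 17 other settings.

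The second probe set of Ptn, 1448254_at, read 5.02, 5.36 and 4.33 in TMS, 7.19, 7.15 and 6.95 in MMS, and 6.93, 7.84 and 7.61 in diffMMS. Again every TMS array was below every other array, with a difference of −2.19 (SE 0.25, 4.57-fold) from MMS and of −2.56 (SE 0.25, 5.88-fold) from diffMMS, both called, whereas MMS and diffMMS overlapped (0.36, SE 0.25, not called). Its TMS mean of 4.90 stood at the 13.2 percentile of all probe sets, so that the constant added before log2 sets much of the size: the difference from MMS was −2.63 without the constant and −1.39 with a constant of 50% of the median intensity. The TMS spread of Ptn was wide, with an SD of 0.828 for the first probe set against 0.138 in MMS. Array 1101A was lowest on both probe sets, and without it the differences from MMS were −0.82 and −1.90 and those from diffMMS −1.69 and −2.26, all 4 still called. Without MMS array 859A the first probe set's difference between TMS and MMS was −1.20 and no longer called.

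Midkine, read by 1416006_at alone, was at 8.91, 8.71 and 8.63 in TMS, 8.97, 9.16 and 9.01 in MMS, and 8.77, 8.48 and 8.73 in diffMMS. MMS was highest on every array, and TMS and diffMMS overlapped. Against MMS the level was lower in TMS (difference −0.30, SE 0.1, not called) and in diffMMS (difference −0.39, SE 0.1, 1.31-fold, called). TMS and diffMMS differed by 0.09 (SE 0.1), with no call. The difference from TMS was called with the values as deposited (−0.43), with arrays centred on the median (−0.48) and without array 1099A (−0.38), and the call for diffMMS was lost without array 859A (−0.33). With arrays centred on the median the difference of diffMMS from MMS was −0.64.

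**Figure D1:**
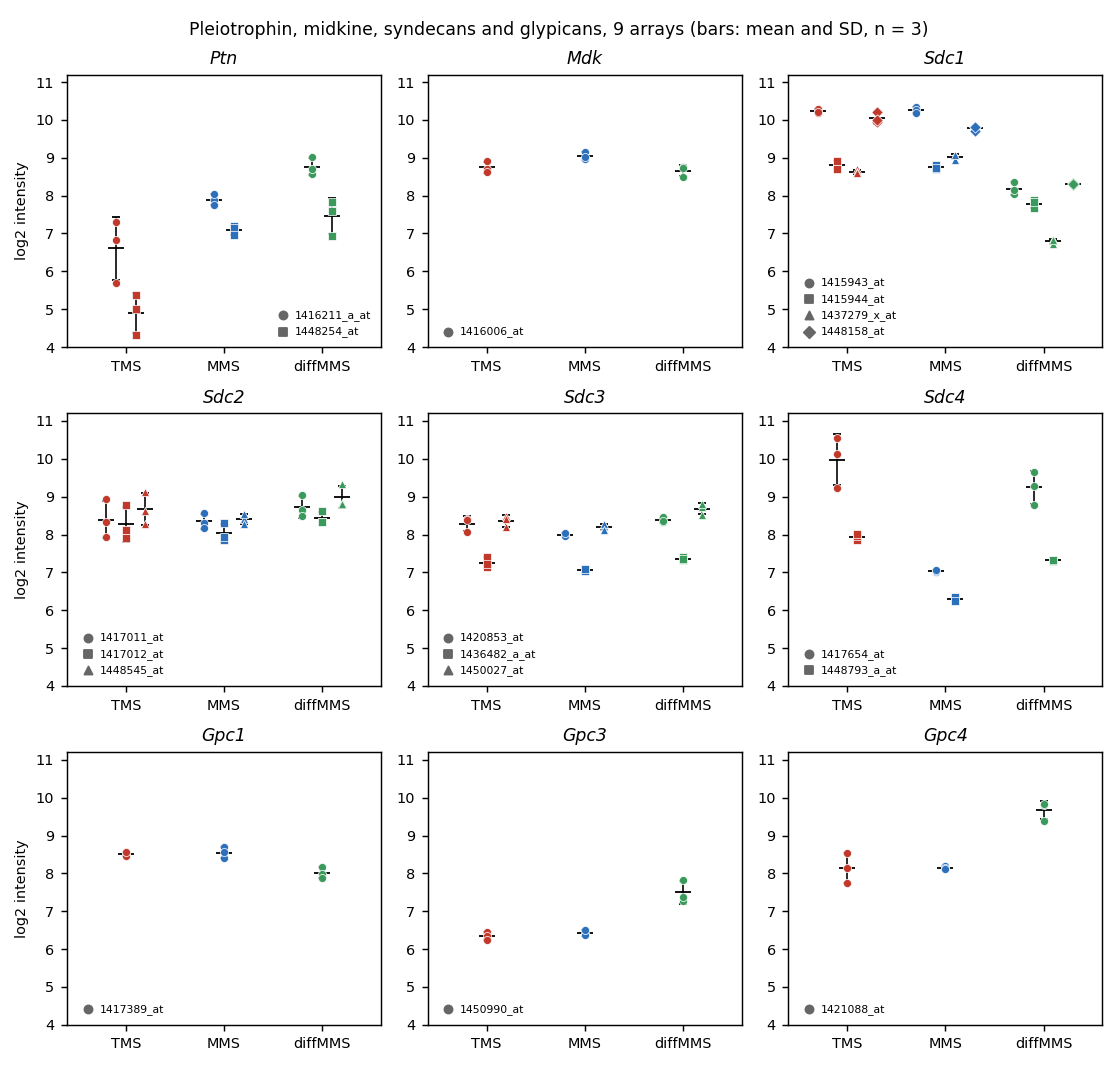
Log2 intensity (vertical axis) of the 18 probe sets in TMS, MMS and diffMMS, 1 panel per gene and 1 marker shape per probe set. Each point is 1 array and the bars are the mean and SD of 3 arrays. Ptn is lowest in TMS, Sdc4 is lowest in MMS, Sdc1 is lowest in diffMMS, and Gpc3 and Gpc4 are highest in diffMMS.

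Among the syndecans, Sdc4 was lowest in mammospheres and higher in both other cultures. Syndecan-4 is the family member of focal adhesions, where it acts with integrins. Probe set 1417654_at read 10.56, 10.13 and 9.24 in TMS, 7.01, 7.03 and 7.06 in MMS, and 9.65, 8.79 and 9.29 in diffMMS. As deposited, these are intensities of 1352, 1077 and 636.4 in TMS, of 119.9, 121.1 and 124.0 in MMS, and of 697.7, 418.4 and 590.8 in diffMMS. MMS was apart from both other groups, which overlapped each other. TMS stood 2.95 (SE 0.277, 7.71-fold) above MMS, the widest difference among the 18 probe sets in any of the 3 comparisons, and diffMMS stood 2.21 (SE 0.277, 4.63-fold) above MMS, both called.

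The other Sdc4 probe set, 1448793_a_at, whose suffix marks probes shared by transcripts of 1 gene, read 7.85, 7.96 and 8.01 in TMS, 6.33, 6.35 and 6.23 in MMS, and 7.30, 7.30 and 7.34 in diffMMS. Here the 3 groups were fully apart, with TMS 1.64 (SE 0.0729, 3.11-fold) above MMS, diffMMS 1.01 (SE 0.0729, 2.01-fold) above MMS, and TMS 0.63 (SE 0.0729) above diffMMS, all called. On 1417654_at the difference of 0.73 (SE 0.277) between TMS and diffMMS was not called, but it was with the values as deposited (0.80), with arrays centred on the median (0.80), without array 1101A (1.11) and without array 861A (0.94). Without array 1099A it was 0.44 and without array 1100A 0.66, neither called. The probe sets of Sdc4 also disagreed on the order of the tumorsphere arrays: 1101A was lowest on 1417654_at, where the TMS range was 1.32, and highest on 1448793_a_at, where the range was 0.17.

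Sdc1 was higher in both kinds of sphere than in the attached cells, where its means still stood at the 56.4 to 86.6 percentile of all probe sets. Syndecan-1 is the main syndecan of epithelia and is also a marker of plasma cells. Probe set 1415943_at read 10.30, 10.19 and 10.22 in TMS, 10.35, 10.26 and 10.18 in MMS, and 8.04, 8.37 and 8.15 in diffMMS. The diffMMS arrays were apart from the 6 sphere arrays, and the difference was −2.08 against MMS (SE 0.091, 4.23-fold), while TMS stood 2.05 above diffMMS (SE 0.091, 4.14-fold). The spheres overlapped each other (TMS minus MMS −0.03, SE 0.091).

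All 4 probe sets of Sdc1 were called lower in diffMMS than in MMS and higher in TMS than in diffMMS. On 1437279_x_at, whose suffix marks probes that can also match other sequences, the arrays read 8.70, 8.62 and 8.59 in TMS, 9.07, 8.95 and 9.07 in MMS, and 6.73, 6.85 and 6.82 in diffMMS, a 4.7-fold difference between diffMMS and MMS. The fold from MMS to diffMMS was 2.77 on 1448158_at and 1.95 on 1415944_at. Between TMS and MMS the probe sets did not give 1 direction: 1437279_x_at was called lower in TMS (−0.40, SE 0.0731), 1448158_at was called higher (0.27, SE 0.0818), and 1415944_at was near 0 (0.06, SE 0.0817) with a sign that turned when the values were taken as deposited (−0.05). The call of 1448158_at was lost in 10 of 17 other settings, among them each of the 7 arrays 1099A, 858A, 859A, 860A, 861A, 862A and 863A left out in turn, with differences of 0.19 to 0.29, and its difference was 0.08 with arrays centred on the median and 0.13 with the values as deposited.

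Sdc2 and Sdc3 differed far less. Syndecan-2 is the syndecan best known from mesenchymal cells, and its 3 probe sets were all high on array 1101A: 1448545_at read 8.29, 8.62 and 9.13 in TMS, 8.41, 8.27 and 8.53 in MMS, and 9.34, 8.82 and 8.81 in diffMMS. DiffMMS was above MMS on every array of this probe set (0.58, SE 0.192, 1.5-fold), which was called here but not in 7 of 17 other settings, among them those without arrays 858A (0.58), 859A (0.51), 860A (0.64) or 861A (0.42), and with arrays centred on the median (0.36). TMS overlapped both other groups. For 1417011_at and 1417012_at the differences between diffMMS and MMS were 0.38 (SE 0.214) and 0.40 (SE 0.196), neither called, the second with groups apart and called without array 1101A (0.39). Centring on the median lowered these differences to 0.16 and 0.21.

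The tumorsphere values of Sdc2 depended on which array was in the fit. With all 9 arrays the differences between TMS and diffMMS were −0.33, −0.16 and −0.31 for 1417011_at, 1417012_at and 1448545_at, none of them called. Without array 1101A they were −0.60 (SE 0.165), −0.42 (SE 0.136) and −0.53 (SE 0.154), all called, and without array 1099A they were −0.10, 0.02 and −0.11, none called and the middle one with its sign turned.

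Sdc3, known mainly from neural cells and muscle precursors, was lowest in MMS on all 3 of its probe sets. On 1420853_at the TMS arrays read 8.41, 8.38 and 8.06, the MMS arrays 7.99, 7.96 and 8.05, and the diffMMS arrays 8.46, 8.33 and 8.35. Every diffMMS array was above every MMS array, and so was every TMS array, though the lowest of them (1101A) only just. DiffMMS minus MMS was 0.38 (SE 0.0947), 0.30 (SE 0.0806) and 0.47 (SE 0.0994) for 1420853_at, 1436482_a_at and 1450027_at, all called, and TMS minus MMS was 0.29, 0.19 and 0.15, none called. Centring the arrays on the median lowered the first and the last of the diffMMS differences to 0.21 and 0.28 and ended both calls, and the call of 1436482_a_at was lost without array 859A (0.27). TMS minus MMS on 1420853_at was 0.40 and called without array 1101A. On 1450027_at TMS was also called lower than diffMMS (−0.32, SE 0.0994), a call that 10 of 17 other settings lost, including those without arrays 1100A (−0.34), 1101A (−0.23), 858A (−0.32), 859A (−0.31), 860A (−0.31), 862A (−0.30) and 863A (−0.26).

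The glypicans, each read by 1 probe set, hardly separated tumorspheres from mammospheres and all separated the attached cells from both. Gpc4 read 8.13, 8.54 and 7.74 in TMS, 8.19, 8.14 and 8.12 in MMS, and 9.39, 9.81 and 9.82 in diffMMS. The diffMMS arrays were apart from the other 6, at 1.52 above MMS (SE 0.17, 2.87-fold), while TMS lay on both sides of MMS (difference −0.01, SE 0.17) and below diffMMS (difference −1.54, SE 0.17, 2.9-fold). Gpc3, which binds Wnt and Hedgehog ligands and is lost in an overgrowth syndrome, read 6.46, 6.35 and 6.25 in TMS, 6.40, 6.37 and 6.50 in MMS, and 7.84, 7.28 and 7.38 in diffMMS. Its diffMMS level was 1.08 above MMS (SE 0.126, 2.11-fold) and TMS was below diffMMS (difference −1.15, SE 0.126, 2.21-fold), both called, and TMS and MMS overlapped (−0.07, SE 0.126).

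Gpc1 went the other way. It read 8.53, 8.46 and 8.57 in TMS, 8.69, 8.40 and 8.56 in MMS, and 8.17, 7.98 and 7.89 in diffMMS, so that diffMMS was below both kinds of sphere. The difference from MMS was −0.54 (SE 0.0953, 1.45-fold) and TMS was 0.51 (SE 0.0953, 1.42-fold) above diffMMS, both called, with no call between TMS and MMS (−0.03, SE 0.0953). The promoters of Gpc3 and Gpc4, neighbouring genes that were both highest in diffMMS, are rich in G and C and hold no TATA core. The window of Sdc3 is also rich in G and C (77.7%) without a TATA core. This is a description of these windows alone.

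**Figure D2:**
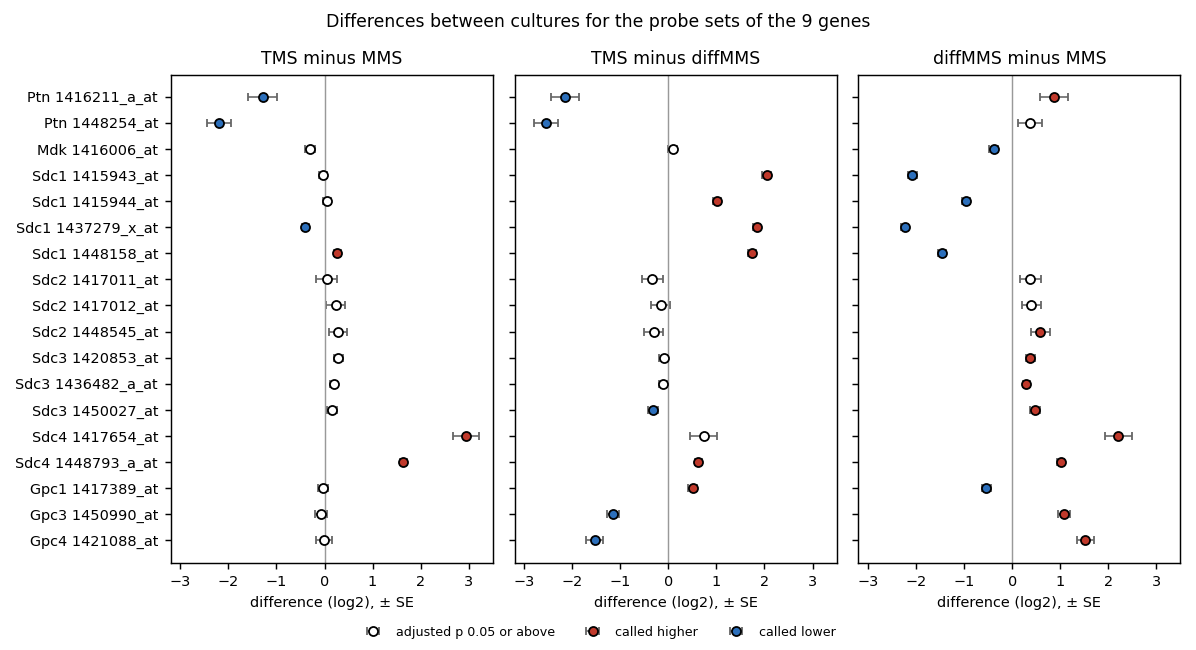
Differences in log2 intensity (horizontal axes) with standard errors for the 18 probe sets in the 3 comparisons. Filled points are called higher (red) or lower (blue) and open points are not called. Between TMS and MMS the largest differences are those of Sdc4 (2.95) and Ptn (−2.19), and between diffMMS and MMS those of Sdc1 (−2.23) and Sdc4 (2.21).

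Counted over the 18 probe sets, 3 were called higher and 3 lower in TMS than in MMS, where 6.50% of all probe sets were called higher and 7.76% lower, and 9 had groups that did not overlap, where 33.3% of all probe sets had none. Against diffMMS, 6 were called higher and 5 lower in TMS (12.2% and 11.5% of all) and 11 did not overlap (37.5% of all). From MMS to diffMMS, 9 were called higher and 6 lower (16.2% and 16.9% of all) and 16 did not overlap (51.6% of all). Several probe sets read the same gene. Counted by gene, 2 had a probe set called higher and 2 lower in TMS than in MMS, with Sdc1 in both. These gene counts were 3 and 4 against diffMMS, and 6 and 3 from MMS to diffMMS. No share over all genes was computed for a call on any probe set, and a gene with more probe sets has more chances of one. The genes were chosen with these values known, so nothing is read from the gap between these counts and the background. The median difference over the 18 probe sets was 0.05, −0.10 and 0.38 in the same order, beside −0.00, −0.02 and 0.03 over all probe sets, and the median size was 0.25, 0.68 and 0.73, beside 0.10, 0.13 and 0.15. All comparisons share groups: TMS minus MMS and diffMMS minus MMS both use the MMS arrays.

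Spread within a group was wider in TMS and diffMMS than in MMS. The median SD of the 18 probe sets was 0.15 in TMS, 0.08 in MMS and 0.16 in diffMMS, against 0.09, 0.07 and 0.09 for all probe sets, and 12 of the 18 had their largest SD in TMS, as did 43.9% of all probe sets. Array 1101A was the one farthest from the other TMS arrays for 9 of the 18, which is 50%, where its share over all probe sets was 42.3%. It was the lowest array for both Ptn probe sets, for Gpc4 and for Sdc4 on 1417654_at, and the highest for the 3 of Sdc2. In diffMMS, array 861A was farthest for 11 of the 18 (61.1%, against 46.7% of all probe sets).

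**Figure D3:**
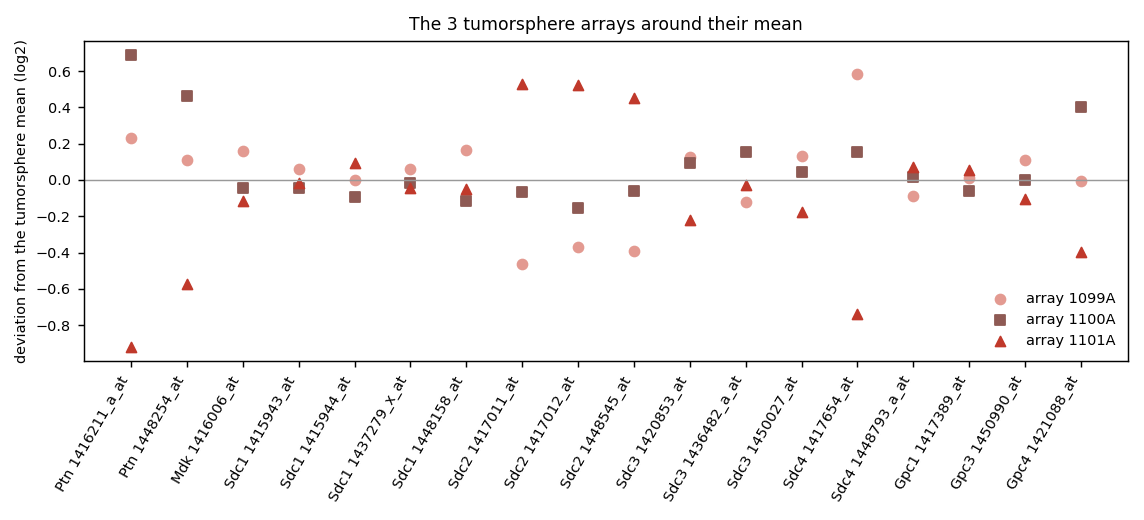
Deviation of each tumorsphere array from the mean of the 3 (vertical axis, log2) for the 18 probe sets. Array 1101A lies lowest for Ptn, Gpc4 and Sdc4 1417654_at and highest for the 3 Sdc2 probe sets.

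Marker genes of several cell types moved with these groups. The 12 luminal epithelium markers had a mean log2 intensity of 7.93 to 8.51 on the TMS arrays, highest on 1101A. It was 5.95 to 6.10 in MMS and 5.93 to 6.05 in diffMMS. In TMS against MMS 9 of the 12 were called higher and none lower, beside 6.21% and 7.11% of all genes. Epcam was at 9.86 in TMS, brighter than 97.0% of probe sets, and at 6.31 in MMS and 6.07 in diffMMS, where it stood at the 42.7 and 36.7 percentile. The luminal keratins Krt8 and Krt18 were at the 68.7 and 33.1 percentile in MMS and at 67.6 and 23.4 in diffMMS. Over the 12 luminal markers the percentiles ran from 2.53 (Cdh1, E-cadherin) to 83.3 (Cldn3) in MMS. In diffMMS they ran from 1.7 (Cdh1) to 90.1 (Cldn3), so that several epithelial markers were dim in the cultures grown from normal gland. In TMS they ran from 31 (Krt19) to 98.4 (Krt8), with Muc1 at 32.4 and Cdh1 at 33.8, so that some were dim there too. Krt19, Kit and Muc1 were not called between TMS and MMS. Markers of fibroblasts were bright in all 9 arrays. The mean of the 9 fibroblast markers was 10.74 to 10.99 in TMS, 10.95 to 11.04 in MMS and 10.99 to 11.11 in diffMMS, lowest on array 1101A. Col1a2 was at 13.15, 13.10 and 13.37 and Dcn at 12.18, 12.07 and 11.57 in the same order. No marker was listed at 0. In these bulk samples fewer cells of a type and less RNA per cell cannot be told apart, and the part of such cells in the levels of Ptn, Sdc2, Sdc4 and Gpc4 was not tested.

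From MMS to diffMMS, 6 of the 10 basal and myoepithelial markers were called higher and none lower, and their mean was 6.38 to 6.44 on the MMS arrays and 7.02 to 7.23 on the diffMMS arrays (6.52 to 6.55 in TMS). The largest of these differences was 2.60, for the smooth muscle actin gene Acta2, followed by Mylk (1.98), Cnn1 (0.83) and Lgr5 (0.56). Krt5, Krt14 and Trp63, which define basal epithelium, were at 6.92, 5.58 and 6.19 in diffMMS. From MMS they differed by 0.19 (groups apart, not called), −0.01 (not called) and 0.32 (called). Of the fibroblast markers 4 of 9 were called higher and 3 lower in that comparison. Macrophage markers were called higher for 6 of 9 in TMS against MMS and for 4 of 9, with 1 lower, in diffMMS against MMS. The 6 plasma and B cell markers, listed because Sdc1 marks plasma cells, had a mean of 5.94 to 6.27 over all arrays. None of them was called between TMS and MMS. From MMS to diffMMS 1 was called higher (Ighm, 0.90) and 1 lower (Cd79b, −1.37). Endothelial markers were called lower for 4 of 7 in TMS against MMS and for 1 of 7 in diffMMS against MMS. In the same order, Schwann and glial markers were called higher for 1 (Sox10) and 2 of 3, and adipocyte markers for 0 and 1 of 4. In TMS against diffMMS, 10 of the 12 luminal markers were called higher and none lower. For basal and myoepithelial markers the calls were 1 higher and 6 lower, for fibroblasts 2 and 4, and for macrophages 4 and 0. Plasma and B cell markers gave 2 and 1, endothelial 0 and 3, Schwann and glial 1 and 0, and adipocyte 0 and 1. Over all genes 6.21% were called higher and 7.11% lower in TMS against MMS. These shares were 12.3% and 12.7% in TMS against diffMMS and 18.0% and 16.1% in diffMMS against MMS. Nothing is read from counts of 1 or 2 in lists this short. The part of these cell types in the levels of Sdc1, Gpc3 and Gpc4 was not tested.

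The rest of the pathway was read from 6 lists that hold 72 other measured genes, each by its brightest probe set, with p values adjusted over all 22626 probe sets. The lists were chosen with earlier results of these data known. Genes named from them were mostly picked as the largest called changes, so their p values are a description. Between TMS and MMS 11 were called higher and 5 lower (6.21% and 7.11% of all genes), between TMS and diffMMS 20 and 13 (12.3% and 12.7%), and between diffMMS and MMS 17 and 17 (18.0% and 16.1%). Of the 10 receptors and binding partners of the ligands, 2 were called higher and 1 lower in TMS than in MMS, 4 were called higher and none lower against diffMMS, and 1 was called higher and 5 lower in diffMMS than in MMS. The largest changes were those of integrin subunits. Itga6 was 2.11 higher in TMS than in diffMMS (SE 0.144, adjusted p = 6.1e-07 from limma) and fell by 1.15 from MMS to diffMMS (adjusted p = 8.78e-05 from limma). Itgav was 1.37 higher in TMS than in diffMMS (SE 0.0877, adjusted p = 3.54e-07 from limma) and fell by 2.002 from MMS to diffMMS (adjusted p = 1.5e-08 from limma), where 1 of its other probe sets, 1432296_a_at, gave −0.15 (adjusted p = 0.202 from limma). The receptor phosphatase Ptprz1 and the receptor kinase Alk, both named after their values were seen, were at 6.49, 6.51 and 6.59 and at 5.99, 6.07 and 6.24 in TMS, MMS and diffMMS, with no call in any comparison.

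Of the enzymes that build heparan sulfate chains 10 were measured, and Xylt1 and Pxylp1 were not. In TMS against MMS 1 was called higher, beside 6.21% of all genes higher and 7.11% lower. In TMS against diffMMS 1 was called higher and 1 lower (12.3% and 12.7% of all genes). None was called in diffMMS against MMS (18.0% and 16.1%). Nothing is read from counts this small. Extl1 was 0.43 higher in TMS than in MMS (SE 0.0687, adjusted p = 0.00166 from limma), and Ext2, a subunit of the chain polymerase, was lower in TMS than in diffMMS (difference −0.24, SE 0.0724, adjusted p = 0.0334 from limma), and that call ended with the deposited values (−0.16), with arrays centred on the median (−0.16), with only the 2 groups in the fit, and without arrays 1100A, 1101A, 859A, 860A, 861A or 863A (−0.24 to −0.19). Among the 14 measured enzymes that modify the chains the calls were 4 higher and 1 lower in TMS against MMS, 5 and 4 in TMS against diffMMS, and 5 and 3 in diffMMS against MMS. Ndst1, Hs3st2, Hs3st5, Hs3st6, Sulf1 and Hpse were not measured. Hs6st2, a 6-O-sulfotransferase, rose by 1.75 from MMS to diffMMS (SE 0.219, adjusted p = 8.75e-05 from limma) on 1 probe set and by 0.73 on another, and a last one gave 0.02 (adjusted p = 0.711 from limma). Sulf2, which removes 6-O-sulfates outside the cell, rose by 1.11 in the same comparison (SE 0.114, adjusted p = 1.7e-05 from limma), and Papss2, which makes the sulfate donor, fell by 0.95 (SE 0.11, adjusted p = 4.72e-05 from limma) with 2 of its 3 other probe sets not called.

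Chondroitin sulfate chains, which syndecans can carry too, are made by enzymes of which 10 were measured. Of these 1 was called higher and 1 lower in TMS than in MMS, 1 and 2 in TMS against diffMMS, and 3 and 1 in diffMMS against MMS. Csgalnact1, which starts such chains, rose by 1.21 from MMS to diffMMS (SE 0.168, adjusted p = 0.000195 from limma) and was lower in TMS than in diffMMS (difference −1.71, adjusted p = 1.5e-05 from limma), while its paralog Csgalnact2 was lower in TMS than in MMS (difference −0.49, SE 0.112, adjusted p = 0.0125 from limma). The sulfotransferase Chst12 rose by 0.39 from MMS to diffMMS (adjusted p = 0.00229 from limma), a call that centring on the median ended (0.24).

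Of 11 other proteoglycans that carry heparan sulfate, 1 was called higher in TMS than in MMS, 4 higher and 3 lower in TMS than in diffMMS, and 3 higher and 3 lower in diffMMS than in MMS. Col18a1, whose collagen XVIII lies in basement membranes, fell by 1.81 from MMS to diffMMS (SE 0.158, adjusted p = 4.36e-06 from limma), and Tgfbr3, the co-receptor betaglycan, rose by 1.58 (SE 0.163, adjusted p = 1.85e-05 from limma). In TMS against diffMMS both differed the opposite way, by 1.58 (adjusted p = 1.64e-05 from limma) for Col18a1 and by −1.56 (adjusted p = 2.47e-05 from limma) for Tgfbr3. Gpc6, the only other glypican measured and named after its values were seen, rose by 0.58 from MMS to diffMMS (SE 0.118, called). Of the 17 cytoplasmic partners of syndecans and enzymes that shed or release the proteins, 2 were called higher and 2 lower in TMS against MMS, 5 and 3 in TMS against diffMMS, and 5 and 5 in diffMMS against MMS. The protease Adamts1, which can shed Sdc4, rose by 2.11 from MMS to diffMMS (SE 0.167, adjusted p = 1.95e-06 from limma) and was lower in TMS than in diffMMS (difference −2.06, adjusted p = 2.71e-06 from limma). Mmp9, another sheddase, fell by 1.26 from MMS to diffMMS (SE 0.224, adjusted p = 0.00118 from limma) and was 1.39 higher in TMS than in diffMMS (adjusted p = 0.000756 from limma).

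**Figure D4:**
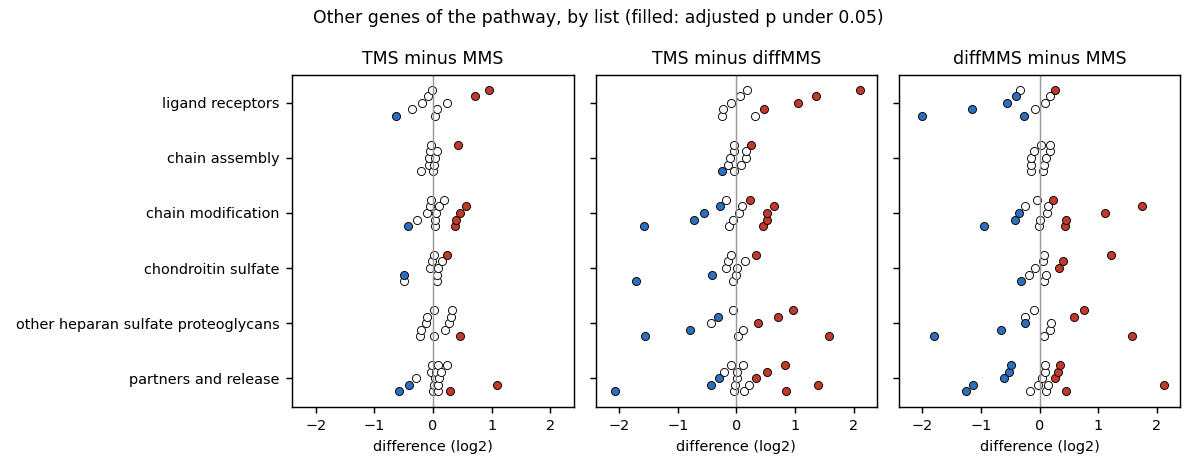
Differences in log2 intensity (horizontal axes) of the 72 other genes of the pathway, 1 row per list and 1 panel per comparison. Each point is 1 gene, filled where its adjusted p was under 0.05 (red higher, blue lower). The enzymes of chain assembly lie within 0.5 of 0 in every panel, and the widest points belong to integrins, Hs6st2, Csgalnact1, Col18a1, Tgfbr3 and Adamts1.

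The genes whose pattern was most like those of the ligands were ranked by Pearson r over the 9 arrays, which fall into 3 groups, so that r follows the group means. For Ptn (1416211_a_at) these were St3gal1 (r = 0.967, group means 6.34, 6.63 and 6.95 in TMS, MMS and diffMMS), Tbx15 (r = 0.967, means 6.40, 6.77 and 7.11) and Itm2a (r = 0.966, means 8.86, 9.98 and 10.22). For Mdk they were Ramp2 (r = 0.951, means 7.82, 8.27 and 7.51), H2az2 (r = 0.95, means 8.17, 8.41 and 8.16) and Tob2 (r = 0.948, means 6.75, 7.17 and 6.67). All 3 of the first set shared the order of Ptn, and all 3 of the second were highest in MMS and lowest in diffMMS, as Mdk was. That largely follows from the choice by r and is not a separate result.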

How the data were processed

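The authors deposited 1 table of intensity values on a linear scale for 9 MOE430A arrays, after a summary and scaling step that is not given in the sources used here. The methods name GeneSpring. Array medians were 83.8 to 88.3, and 0 columns lacked a sample. The table holds 22690 probe sets, of which 64 Affymetrix controls were left out. By the platform annotation 20380 of the others carry 1 symbol, 691 several and 1555 none, and 20351 matched RefSeq (GRCm38.p6) by Entrez ID.

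Each intensity was raised by a constant of 8.641 (10% of the overall median), put on the log2 scale and quantile normalized between arrays, because quartiles differed by up to 0.134 (limit 0.1). Group means of all 9 arrays were fitted with limma 3.58.1 in R 4.3.3 (lmFit, eBayes with an intensity trend, 6 residual degrees of freedom), two-sided p values were adjusted by Benjamini-Hochberg, and the threshold was 0.05. The fit was tested on simulated data. Fold changes of dim probe sets are understated by the constant. The number of arrays limits the precision, and p values rest on the spread between these preparations, as moderated by limma over all probe sets.

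All probe sets of the 9 genes are named. Per pathway list the 2 largest rises and 2 largest falls among called genes are named, with exceptions marked, and for each ligand the 3 genes of highest r. Members, pathway lists and cell type markers were chosen with earlier results of these data known. Alternatives were the values as deposited, median centring, a filter on dim probe sets, 2 other constants, 2 other variance models, only the groups compared, a threshold of 0.01 and each array left out. Motifs and figures were made with Python 3.11.15 and matplotlib 3.10.9.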

Additional observations from a re-analysis of the deposited data

How the results depend on the processing

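No difference of the 18 probe sets and no named difference of the pathway turned its direction while called, under any alternative tried. Probe sets called ran from 4 to 7 between TMS and MMS (6 as reported), from 10 to 14 between TMS and diffMMS (11) and from 11 to 16 between diffMMS and MMS (15), and 4, 10 and 9 of the reported calls were made under all 17 alternatives that kept the threshold of 0.05. Pathway genes called between TMS and MMS were 16 as reported, 7 at a threshold of 0.01, and 8 to 19 with 1 array left out, 8 of them without array 859A and 10 without 860A. Of 42 differences of the named pathway genes, 6 lost and 3 gained a call under 1 or more alternatives, and 33 did neither. Centring on the median moved the share of higher calls among all called probe sets from 45.6% to 34.0% for TMS against MMS (1220 higher and 2366 lower) and from 48.9% to 38.0% for diffMMS against MMS (2875 and 4691), and it shifted the 18 probe sets by a median of −0.11 and −0.19, the probe sets above the upper quartile of brightness by −0.12 and −0.19 and all probe sets by −0.01 and −0.01. The cause was not tested. No paired analysis was possible because the labels give no replicate numbers that groups share. With 3 arrays a group, a difference that was not called is not shown to be absent, and signal near the background, as for Ptn 1448254_at in TMS, limits the size of a fold.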
